A study of Mus musculus with 2 samples.

Results

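Aminoacyl-tRNA synthetases are the enzymes that join each amino acid to its tRNA. The 37 genes described here were chosen by name: every protein-coding gene whose symbol is 1 capital letter followed by "ars", with or without a closing 1 or 2, together with Eprs, Farsa and Farsb. Of these, 20 encode cytosolic enzymes and 17, whose symbols end in 2, encode mitochondrial enzymes, out of 21461 nuclear protein-coding genes matched and 43346 genes in the deposited tables. Lars2, the gene of the mitochondrial leucine enzyme, is described apart, which leaves 16 mitochondrial genes in every count and median unless Lars2 is named.

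The RNA came from common myeloid progenitors (CMP), bone marrow cells that give rise to granulocytes, monocytes, red cells and platelets. Each of 2 libraries was made from the total RNA of a pool of 100 primary CMP isolated from male adult C57BL/6J mice aged 5 to 6 weeks, with RNA over 200 nucleotides kept and spike-in RNA added. Both libraries belong to 1 group with no treatment, so the comparisons are between synthetase genes of CMP, and between replicate 1 and replicate 2. The labels give both libraries separate biosamples but 1 donor identifier, so the spread measured is that between these 2 libraries and may be technical.

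Cells need 1 synthetase activity for each amino acid in the cytosol, for ribosomes that read nuclear messages. Mitochondria, whose ribosomes read the mitochondrial genome, need them again for all amino acids but glutamine, whose tRNA is charged by another route. Nearly all mitochondrial enzymes are encoded by nuclear genes of their own, while Gars (glycine) and Kars (lysine) supply both compartments from 1 gene each. Several cytosolic enzymes are held in the multisynthetase complex by scaffold proteins, and the others work free of it. When amino acids run short, uncharged tRNA activates the kinase Gcn2, and translation of the factor Atf4 then turns on synthetase genes.

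Replicate 1 held 28916263 expected counts and replicate 2 held 26426710, with 43.9% and 45.3% of them on nuclear protein-coding genes. The cell type was checked against its markers. Kit stood at 98.1 and 93.0 TPM (transcripts per 1000000) and Cd34 at 74.5 and 55.4 TPM in replicates 1 and 2. Fcgr2b and Fcgr3, the Fc receptor genes of the gate, were higher in replicate 2, at 2.48 and 9.59 TPM and at 0.64 and 4.27 TPM, while Ly6a and Il7r, which the usual CMP gate excludes, had 0 counts. The summed level of 3 T cell markers was at most 0.46 TPM, of 3 B cell markers at most 0.02 TPM and of 4 neutrophil markers at most 1.33 TPM. Red cell markers summed to 21.3 TPM in replicate 1 and 64.6 TPM in replicate 2, 3 macrophage markers to 10.8 and 4.63 TPM, nearly all from Csf1r, and 3 stromal markers to 6.66 and 6.81 TPM, nearly all from Pdgfrb. Whether cells of these other types were present, or add to the synthetase counts, was not tested.

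All 37 synthetase genes were read at 1 TPM or more in both libraries, as were 44.9% of all nuclear protein-coding genes. The 36 genes other than Lars2 took 40241 counts in replicate 1 and 40122 counts in replicate 2. These were 0.139% (95% Wilson interval 0.138 to 0.141%) and 0.152% (0.1503 to 0.1533%) of all counts, and the intervals hold counting error alone, since no molecular identifiers separate molecules from copies. In pooled cells, fewer cells of a type and less RNA per cell cannot be told apart.

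Cytosolic synthetase genes were read higher than mitochondrial ones. The median of the 20 cytosolic genes was 34.6 TPM in replicate 1 and 31.5 TPM in replicate 2, against 7.43 and 10.2 TPM for the 16 mitochondrial genes, so the cytosolic median was 4.65 and 3.08 times the mitochondrial one. On the log2(TPM + 1) scale the cytosolic median was higher by 1.80 ± 0.39 (SD, n = 2 libraries). Summed over their genes, the cytosolic enzymes reached 791 and 778 TPM and the mitochondrial enzymes 168 and 170 TPM in replicates 1 and 2. Both sums thus stayed close between libraries whose single genes differed more. In each library 15 of the 20 cytosolic genes stood above every mitochondrial gene. An exact test over 2 libraries cannot give a two-sided p below 0.5, so these differences carry no p.

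Among the 9627 nuclear protein-coding genes detected in both libraries, whose median was 13.2 TPM in replicate 1 and 13.5 TPM in replicate 2, 18 of 20 cytosolic genes lay above the median in both libraries and 13 above the 75th percentile in both. Of the 16 mitochondrial genes, 3 lay above the median in both libraries (Iars2, Tars2 and Hars2), 8 below it in both and 5 below the 25th percentile in both.

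**Figure D1:**
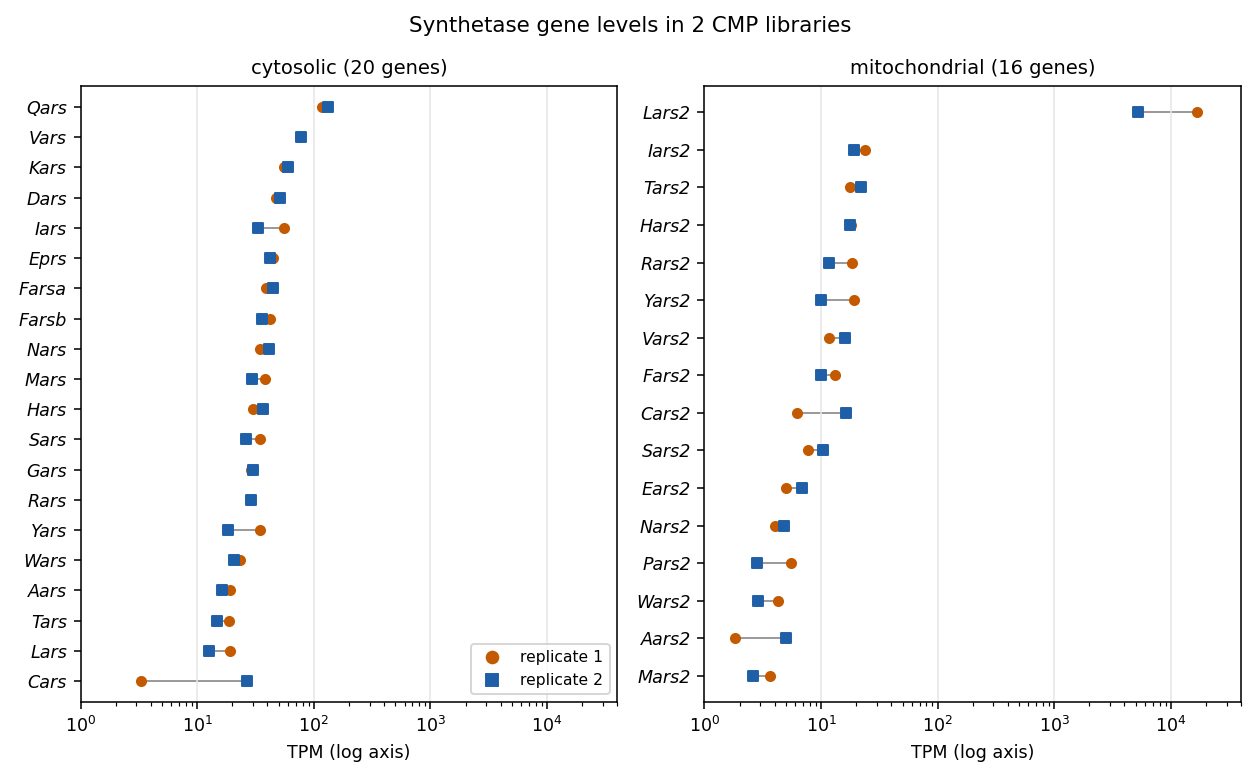
Level of 36 synthetase genes in TPM on a log axis, with cytosolic genes on the left and mitochondrial genes on the right, ordered by mean. Circles are replicate 1 and squares replicate 2. Cytosolic genes sit between 12.7 and 132 TPM, with Cars at 3.28 TPM in replicate 1 below them, mitochondrial genes between 1.84 and 23.9 TPM, and Lars2 alone at 16724 and 5181 TPM.

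Qars, which charges glutamine, was the highest cytosolic gene at 118 TPM in replicate 1 and 132 TPM in replicate 2 (chromosome 9, 108507706 to 108515941, GRCm38). Vars, the valine enzyme (chromosome 17, 35000987 to 35016322), followed at 76.4 and 77.8 TPM. Kars, which charges lysine in both compartments (chromosome 8, 111993443 to 112011323), had 55.6 and 60.3 TPM. These 3 genes and Dars, the aspartate enzyme, at 47.8 and 50.9 TPM, fell into an order in which neither library of a lower gene reached a higher one. Iars (isoleucine) had 55.7 and 33.2 TPM so its values lay on either side of both values of Eprs. Eprs, which encodes the glutamate and the proline enzyme in 1 protein (chromosome 1, 185363044 to 185428360), had 44.4 and 41.8 TPM.

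The middle of the cytosolic order held Farsa, Farsb, Nars, Mars, Hars, Sars, Gars, Rars, Yars and Wars, whose means ran from 41.8 TPM for Farsa to 21.8 TPM for Wars. Gars, the glycine enzyme of both compartments, stood at 28.7 and 29.8 TPM. Below these came Aars (alanine) at 19.2 and 16.3 TPM, Tars (threonine) at 18.8 and 14.7 TPM and Lars (leucine) at 19.1 and 12.7 TPM. Cars, which charges cysteine, closed the order at 3.28 TPM in replicate 1 and 26.7 TPM in replicate 2. Its 2 values lay on either side of those of Aars, Tars and Lars. Of the 19 neighbouring pairs in the cytosolic order, 4 did not overlap between libraries and 15 did. Sorting by the mean places close genes side by side, and the share for neighbours among all genes was not taken.

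Among mitochondrial genes Iars2 was highest at 23.9 TPM in replicate 1 and 19.3 TPM in replicate 2, and Tars2 stood at 17.6 and 22.1 TPM. Hars2, the histidine enzyme, gave 18.1 and 17.9 TPM. Next were Rars2 (arginine) at 18.3 and 11.6 TPM, Yars2 (tyrosine) at 19.3 and 9.98 TPM and Vars2 at 11.6 and 16.1 TPM. Among the next were Fars2, Cars2, Sars2, Ears2, Nars2 and Pars2, with means from 11.6 TPM for Fars2 to 4.18 TPM for Pars2. The lowest were Wars2 (tryptophan) at 4.30 and 2.89 TPM, Aars2 at 1.84 and 5.04 TPM and Mars2 (methionine) at 3.65 and 2.62 TPM. Mars2 drew 836 and 597 counts, behind only Iars2 and Tars2 in replicate 1, but its only listed transcript has an effective length of 11149 bases there. Of 15 neighbouring pairs, 2 did not overlap, Sars2 over Ears2 and Ears2 over Nars2, again without a share for neighbours among all genes.

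Synthetases fall into 2 structural classes, and the levels of their genes overlapped. Cytosolic genes of class I enzymes had medians of 34.6 and 29.1 TPM (n = 9) and those of class II 34.5 and 36.1 TPM (n = 10) in replicates 1 and 2, with Eprs, which holds a domain of each, left out. Mitochondrial class I genes had medians of 8.93 and 10.8 TPM and class II genes 7.43 and 10.2 TPM (8 genes each). The cytosolic phenylalanine enzyme is built from alpha subunits, encoded by Farsa, and beta subunits, encoded by Farsb. Farsa stood at 38.8 and 44.7 TPM and Farsb at 42.4 and 35.6 TPM, a ratio of Farsa over Farsb of 0.915 in replicate 1 and 1.26 in replicate 2, so neither subunit's gene was higher in both libraries on this scale. The direction turned with the measure. In counts per 1000000, without length correction, Farsa was higher in both (47.8 and 51.6, against 33.0 and 45.3 for Farsb), and on protein-coding transcripts alone Farsa was lower in both (14.8 and 0 TPM, against 34.6 and 14.6 TPM for Farsb).

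Besides leucine, 16 amino acids have a cytosolic and a separate mitochondrial gene, and the levels of each pair were compared. Farsa stood for the cytosolic phenylalanine enzyme, and Farsb was not counted. The cytosolic gene was higher in both libraries without overlap in 13 of 16 pairs and the mitochondrial gene in 0 of 16. Of all pairs of detected nuclear protein-coding genes, 80.3% did not overlap in one direction or the other, a share near that of the 16 pairs, and what the 13 pairs share is their direction. The cytosolic gene was 2-fold or more above its partner in both libraries in 10 pairs, and the median ratio was 4.91 in replicate 1 and 3.84 in replicate 2.

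Eprs over Pars2, for proline, gave the largest mean ratio, 3.14 ± 0.34 (log2, SE, n = 2), with 44.4 and 41.8 TPM against 5.51 and 2.84 TPM. Mars stood at 38.0 and 29.4 TPM against 3.65 and 2.62 TPM for Mars2, a log2 ratio of 3.07 in each library. Nars, for asparagine, had 34.6 and 41.6 TPM against 4.05 and 4.77 TPM for Nars2. These 3 pairs lay 8-fold or more apart in both libraries.

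Eprs exceeded Ears2, the glutamate enzyme of mitochondria at 5.02 and 6.83 TPM, by 2.68 ± 0.23 on the log2 scale. Vars exceeded Vars2 by 2.41 ± 0.20, and Wars, at 23.1 and 20.6 TPM, exceeded Wars2 by 2.33 ± 0.15. Aars and Aars2 differed by 2.17 ± 0.66, the widest error among the pairs that did not overlap, with Aars2 at 1.84 TPM in replicate 1 and 5.04 TPM in replicate 2. Farsa stood 1.77 ± 0.29 above Fars2, at 13.3 and 9.93 TPM, but on protein-coding transcripts alone Farsa had 14.8 and 0 TPM against the same values for Fars2. Sars, at 34.4 and 26.1 TPM, stood 1.63 ± 0.39 above Sars2, at 7.72 and 10.5 TPM.

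The narrowest of the separated pairs were isoleucine, arginine and histidine. Iars stood 0.97 ± 0.22 above Iars2. Rars, at 28.2 and 29.1 TPM, stood 0.93 ± 0.33 above Rars2, and Hars, at 30.3 and 36.6 TPM, stood 0.85 ± 0.14 above Hars2. Hars and Hars2 lie head to head on opposite strands and overlap by 198 bases.

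Tyrosine, cysteine and threonine pairs overlapped. Yars had 34.6 and 18.3 TPM against 19.3 and 9.98 TPM for Yars2, so Yars was higher by about the same ratio within each library (0.81 on the log2 scale in both) although the lower Yars value fell below the higher Yars2 value. Cars had 3.28 and 26.7 TPM against 6.24 and 16.5 TPM for Cars2, and the order of these genes differed between libraries in TPM. In expected counts Cars was below Cars2 in both libraries, with 156 and 489 counts against 218 and 570, and on protein-coding transcripts alone the ratio of Cars over Cars2 was 0.526 and 0.435. Tars had 18.8 and 14.7 TPM against 17.6 and 22.1 TPM for Tars2, and its mean log2 ratio was -0.24 ± 0.32.

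**Figure D2:**
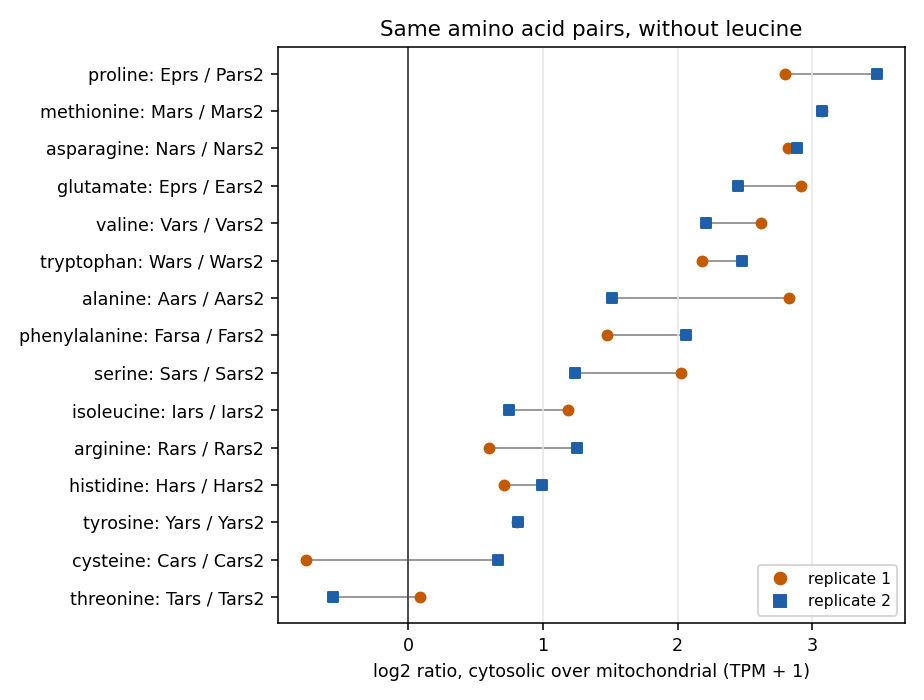
Log2 ratio of cytosolic over mitochondrial TPM (each plus 1) for 15 pairs of genes that charge the same amino acid, with replicate 1 as circles and replicate 2 as squares. The line at 0 marks equal levels. In both libraries all but cysteine and threonine lie to the right of it, between 0.60 and 3.48, and those 2 pairs straddle it.

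Synthetases held in the multisynthetase complex (Dars, Eprs, Iars, Kars, Lars, Mars, Qars and Rars) had a median of 46.1 TPM in replicate 1 and 37.5 TPM in replicate 2, against 32.4 and 28.3 TPM for the 12 free-standing cytosolic genes. The difference was 0.44 ± 0.07 on the log2 scale (SD, n = 2). Both groups spanned much the same range, from 12.7 to 132 TPM inside the complex and from 3.28 to 77.8 TPM outside it. The difference was 0.33 without Qars and 0.71 on protein-coding transcripts alone, both chosen after the values were seen.

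All 3 scaffold genes of the complex were detected in both libraries, as were 44.9% of all nuclear protein-coding genes. Aimp2 stood at 42.2 and 26.4 TPM, Aimp1 at 22.1 and 38.0 TPM and Eef1e1 at 32.6 and 23.3 TPM. Their medians, 32.6 and 26.4 TPM, lay below those of the 8 enzymes of the complex in each library, and the single genes overlapped with them.

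Of 54 genes that work with synthetases or charged tRNA, 48 were detected in both libraries, as were 44.9% of all nuclear protein-coding genes. The medians of the 54 genes, 13.7 and 13.4 TPM, lay near those of all detected nuclear protein-coding genes, 13.2 and 13.5 TPM. All 5 synthetase-like and proofreading genes were detected, and Aarsd1, an editing protein that clears wrongly charged alanine tRNA, led them at 28.1 and 33.1 TPM. Dtd1, a D-aminoacyl-tRNA deacylase, stood at 12.5 and 16.8 TPM. Prorsd1 had 14.9 and 11.7 TPM and Tarsl2, a relative of Tars, 9.52 and 7.23 TPM. Mitochondria make glutamine-tRNA by amidating glutamate-tRNA, and all 3 subunit genes of that amidotransferase were detected. Gatc stood at 16.2 and 15.6 TPM, Gatb at 5.92 and 7.02 TPM and Qrsl1 at 9.30 and 3.36 TPM. Mtfmt, which formylates the methionine initiator tRNA there, had 9.00 and 14.9 TPM. These levels lay within the range of the 16 mitochondrial synthetase genes.

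Selenocysteine is made on its tRNA, and all 5 genes of that route were detected, though Pstk, the kinase of that route, had 1.00 TPM from 20 counts in replicate 1 and 18.8 TPM from 300 counts in replicate 2. Secisbp2 stood at 18.4 and 18.3 TPM, Sephs2 at 20.5 and 8.64 TPM and Eefsec, the elongation factor for selenocysteine, at 11.1 and 11.98 TPM. Of 15 genes for tRNA end processing and CCA addition 13 were detected in both, where 44.9% of all nuclear protein-coding genes were. Hsd17b10, a subunit of mitochondrial RNase P, had 33.7 and 54.2 TPM. Pop5 and Rpp21 encode subunits of nuclear RNase P, and Pop5 had 23.3 and 57.5 TPM and Rpp21 13.8 and 36.8 TPM. Trnt1, the CCA-adding enzyme, stood the other way at 24.9 and 13.4 TPM. Rpp25, another RNase P subunit gene, had 0 counts in both libraries, which allows up to 0.104 and 0.114 counts per 1000000 (3 counts of each total), and Elac1, the other gene of the list not detected in both, named after its values were seen, had 5.00 TPM in replicate 1 and 0.62 TPM in replicate 2.

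All 7 genes for tRNA splicing and export were detected, against 44.9% of all nuclear protein-coding genes. The tRNA ligase gene Rtcb led them at 45.6 and 44.5 TPM. Ddx1, a helicase of the ligase complex, had 39.0 and 30.5 TPM, and Tsen15, a subunit of the splicing endonuclease, 28.7 and 34.6 TPM. Xpot, the tRNA exporter, stood at 19.8 and 19.1 TPM. Eef1a1, the elongation factor that carries charged tRNA to the cytosolic ribosome, stood at 4893 and 4705 TPM, a level that is uncertain because reads of its many processed pseudogenes may be divided with it. Its mitochondrial counterpart Tufm stood at 42.0 and 43.9 TPM, while Eef1a2, the form of muscle and neurons, had 0 counts.

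Of 12 genes for sensing uncharged tRNA and for the Atf4 response, 9 were detected in both libraries, against 44.9% of all nuclear protein-coding genes. The list medians were 16.7 and 21.3 TPM. Eif2ak4, which encodes Gcn2, stood at 9.72 and 13.3 TPM and Atf4 at 57.5 and 62.0 TPM. Atf4 targets that make amino acids stood above the list median in both libraries. Asns, for asparagine, had 75.9 TPM in replicate 1 and 39.6 TPM in replicate 2. Phgdh and Psat1, of serine synthesis, had 44.5 and 47.7 TPM and 34.7 and 37.5 TPM. The stress response genes of the list ranged widely. Ppp1r15a stood at 27.4 and 41.6 TPM, Ddit3 at 2.71 and 9.93 TPM and Sesn2 at 1.08 and 2.12 TPM. Atf5 had 1.22 and 0.77 TPM, Trib3 0.03 and 0.76 TPM and Chac1 0 counts in both libraries. Gcn1l1, which encodes the partner of Gcn2, stood at 23.7 and 29.2 TPM. Eif2ak4, Gcn1l1, Ppp1r15a, Ddit3, Sesn2 and Atf5 are named beyond the 4 highest genes of this list and those below 1 TPM in both libraries, so that all 12 are given, and were added after their values were seen.

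The promoters of the synthetase genes were searched for the element that Atf4 binds, because Atf4 acts on this family. RefSeq promoters (build GRCm38.p6, 250 bases before to 50 bases after the start) were looked up by gene symbol. They were found for 27 of the 37 genes, 13 cytosolic and 14 mitochondrial. The other 10 had no entry under the symbol used and were not searched. The letters TGATGNAA, on either strand, were found in 5 of 13 cytosolic promoters and in 0 of 14 mitochondrial ones, against 4.51% of all 27025 gene symbols with a promoter. The matches are shown because all lie in cytosolic genes; this difference was not tested. Capitals mark the match, and each stretch reads 5′ to 3′ on the strand of its gene, so TTNCATCA is the same element on the other strand. Negative positions count back from the base before the start.
Gars, chr6:55037945-55038000, + strand, match from -30 to -23: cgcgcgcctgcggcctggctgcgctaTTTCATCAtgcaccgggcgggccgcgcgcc
Tars, chr15:11399659-11399699, - strand, match from -15 to -8: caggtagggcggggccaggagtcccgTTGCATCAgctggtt
Aars, chr8:111033704-111033763, + strand, match from -112 to -105: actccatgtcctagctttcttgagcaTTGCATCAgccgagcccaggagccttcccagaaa
Aars, chr8:111033840-111033869, + strand, match from 10 to 17: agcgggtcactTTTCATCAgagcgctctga
Iars, chr13:49682126-49682155, + strand, match from 8 to 15: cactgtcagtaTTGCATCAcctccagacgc
Yars, chr4:129189895-129189924, + strand, match from 4 to 11: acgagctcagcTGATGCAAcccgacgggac

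Aars held 2 matches and the other 4 genes 1 each, all within 112 bases before or 17 bases after the start. The levels of these 5 genes did not stand apart from the other cytosolic genes, since they ran from Aars and Tars near the lower end to Iars near the upper end. A second element searched, the E-box CACGTG bound by Myc and related factors, was found in 4 of 13 cytosolic promoters (Farsb, Aars, Iars and Tars) and in 1 of 14 mitochondrial ones (Ears2), against 8.09% of all gene symbols. Neither element overlapped the other. These are matches of letters in 1 window per start site and show no binding.

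Expected counts of the synthetase genes were next divided by transcript. Of all counts on the 36 genes other than Lars2, transcripts that GENCODE M21 types as protein coding took 79.6% in replicate 1 and 78.3% in replicate 2, and retained-intron transcripts took 15.8% and 14.5%. The count was a whole number in both libraries for 35 of the 37 genes (within 0.005), so few of these counts hold a part of a read. A read shared between genes but given wholly to either would also leave whole counts. The share of all genes with whole counts was not taken. No source used here says whether counting used the strand of the reads, and 10 synthetase genes overlap a protein-coding gene on the opposite strand.

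In 20 genes 90% or more of the counts lay on protein-coding transcripts in both libraries, among them Kars, Gars, Nars, Hars, Tars and Lars at 100% in each. The median share was 98.2% and 97.5% for the 37 genes. For all nuclear protein-coding genes with 50 or more counts in each library it was 100% in both. In 5 genes less than 50% did so in both libraries, 5 of 37 where 5.90% of nuclear protein-coding genes with 50 or more counts in each library had so little. Among them, Ears2 had 0% in both and Farsa 37.1% and 0%. Qars stood at 35.0% and 22.6% and Vars2 at 43.7% and 38.5%. The leading Qars transcript, of 2150 bases, took 22.4% and 41.5% of its counts, but is not in GENCODE M21 and has no type. It was left out of the protein-coding share, and Qars is among the 5 genes only on that reckoning. All 326 and 598 counts of Ears2 lay on 2 retained-intron transcripts. Vars, Mars, Farsb and Yars2 fell below 50% in 1 library each.

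Most of the Qars level lay on short transcripts. Its protein-coding transcripts gave 12.6 and 8.58 TPM of the 118 and 132 TPM of the gene, and the transcript without a type gave 11.4 and 23.1 TPM. The retained-intron transcripts Qars-205, of 462 bases, and Qars-206, of 337 bases, gave 12.7 and 51.2 TPM and 27.0 and 0.27 TPM. A further 24.7 and 7.16 TPM of the gene's value lay on a retained-intron transcript of 756 bases that GENCODE M21 names Qrich1-208, after a neighbouring gene. On protein-coding transcripts alone, Kars was the highest cytosolic gene at 55.6 and 60.3 TPM. In the same reckoning 12 of the 16 pairs of compartments had the cytosolic gene higher without overlap and 0 the mitochondrial one. The phenylalanine pair of Farsa and Fars2 was no longer separated. Farsb, the other subunit's gene, stood at 34.6 and 14.6 TPM, above both values of Fars2, 13.3 and 9.93 TPM. The median cytosolic to mitochondrial difference was 2.08 on the log2 scale. Farsa and Ears2 were among the genes that then fell below 1 TPM in a library, which left 34 of 37 genes detected. Neither the share of all genes detected nor that of all gene pairs without overlap was taken in this reckoning.

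**Figure D3:**
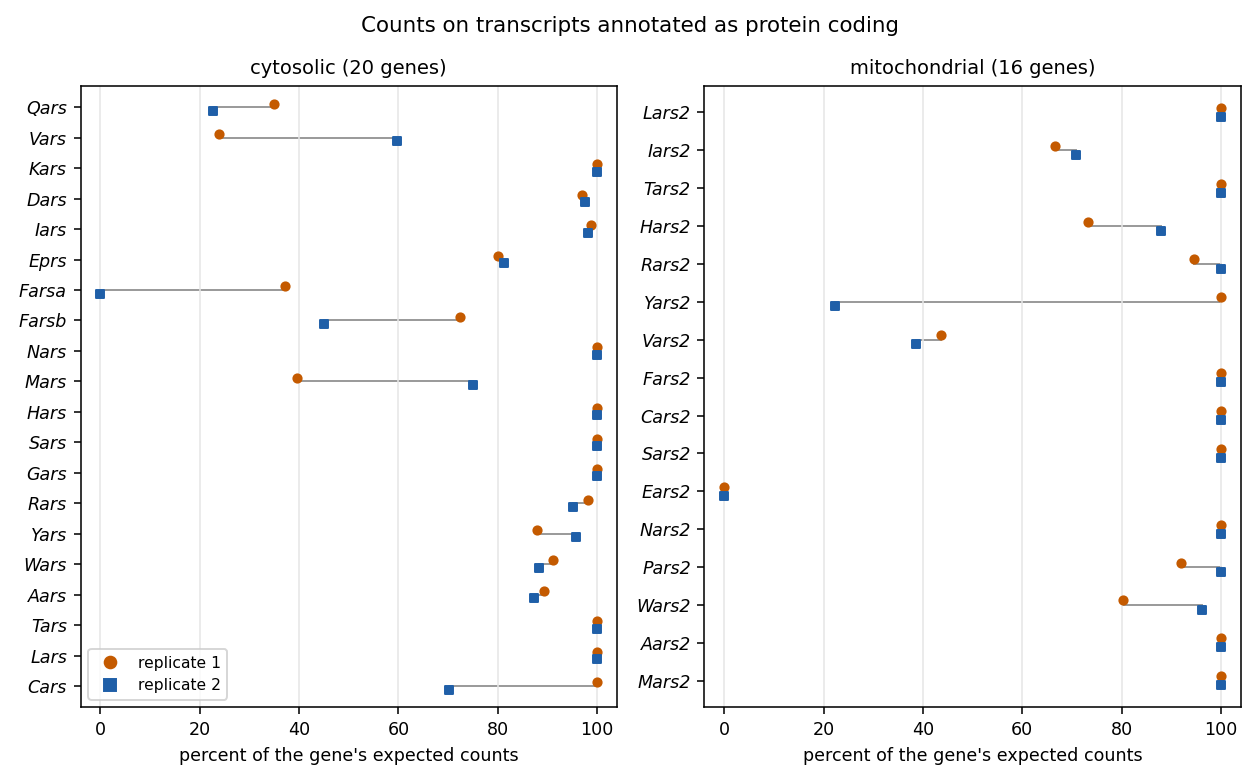
Percent of the expected counts of 36 synthetase genes that lay on transcripts typed as protein coding, with cytosolic genes on the left, mitochondrial genes on the right and the genes in order of mean TPM. Circles are replicate 1 and squares replicate 2. Most genes sit at or near 100%, Ears2 sits at 0% in both, and Yars2 sits at 100% in replicate 1 and 22.2% in replicate 2.

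The leading transcript of a gene also shifted between libraries. Of the 27 synthetase genes with more than 1 transcript and 50 or more counts in each library, 22 had a leading share that differed (Fisher's exact test, two-sided, Benjamini-Hochberg adjustment over all genes at 0.05), as did 77.7% of the 7355 genes tested. The test took expected counts as observed reads. They divide reads that transcripts of a gene share, and the error of that division is not in the p, so a shift may lie in the division alone. A shift of 20 percentage points or more was seen in 10 of 27, against 38.0% of all genes. Yars2-201 took 80.8% of 621 counts in replicate 1 and 0% of 313 counts in replicate 2. Ears2-203 took 7.36% and 80.1% in replicates 1 and 2. Mars-205 took 58.1% and 22.5%. Tars2-204, like Ears2-203, took more in replicate 2, with 33.7% and 69.8%.

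Among the others, Cars-202 and Vars-203 took the larger share in replicate 1, at 100% and 66.3% and at 62.2% and 34.3%. Hars2-206, Fars2-201 and Iars-206 took the larger share in replicate 2. Hars2-206 stood at 54.2% and 85.9%, Fars2-201 at 68.3% and 94.3% and Iars-206 at 71.9% and 97.8%. Ears2-203, Mars-205 and Vars-203 are retained-intron transcripts, and the other leading transcripts named with a shift are protein coding. Kars-201 led Kars with 83.6% and 79.7%, and the rest of Kars lay on Kars-203 in replicate 1 (353 counts) and on Kars-202 in replicate 2 (469 counts), each at 0 in the other library. Gars has the single transcript Gars-201 in the tables. Both shares of shifted genes lay near those of all genes.

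Between the libraries, 30 of 37 synthetase genes differed beyond counting error, 16 higher in replicate 1 and 14 higher in replicate 2 (two-sided exact binomial test on TMM-scaled counts, Benjamini-Hochberg adjustment over 13616 genes at 0.05). Of all genes tested 78.2% did so, a share near that of the synthetase genes. The median log2 ratio of replicate 1 over replicate 2 was 0.05 for synthetase genes and -0.03 for all genes. Of the 37 genes, 5 lay 2-fold or more apart, where 30.3% of all genes did and 13.2% of the genes with a mean of 100 or more counts, a level that all 37 reach. Scaling by total counts, which moves the median of all genes to -0.21, turned the split into 9 and 21. Those totals include Lars2 and Gm42418, a long intergenic RNA by annotation with 11029206 and 8707790 counts in replicates 1 and 2.

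Cars had 156 counts in replicate 1 and 489 in replicate 2, a log2 ratio of -1.62 with a counting SE of 0.13 (adjusted p = 2.3e-38, exact binomial test). Its TPM differed more, at 3.28 and 26.7, and the effective length in the tables was 2317 bases in replicate 1 and 892 bases in replicate 2, where short retained-intron transcripts drew counts. Cars2, which charges the same amino acid in mitochondria, differed in the same direction with 218 and 570 counts and a log2 ratio of -1.36 (SE 0.11, adjusted p = 1.8e-34, exact binomial test). Aars2 had 121 and 329 counts, a log2 ratio of -1.42 (SE 0.15, adjusted p = 1.4e-21, exact binomial test).

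Yars2 went the other way with 621 counts in replicate 1 and 313 in replicate 2, a log2 ratio of 1.02 (SE 0.10, adjusted p = 1.4e-24, exact binomial test). Lars2 was the fifth. The remaining 32 genes lay between Ears2 at -0.85 and Rars2 at 0.74. The 7 genes that did not pass the test were Qars, Kars, Dars, Farsa, Sars, Gars and Wars2, with log2 ratios between -0.15 and 0.07. The median size of the log2 ratio was 0.23 for cytosolic and 0.41 for mitochondrial genes, whose counts were lower, at 118 to 1690 against 156 to 4139 per library in cytosolic genes.

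**Figure D4:**
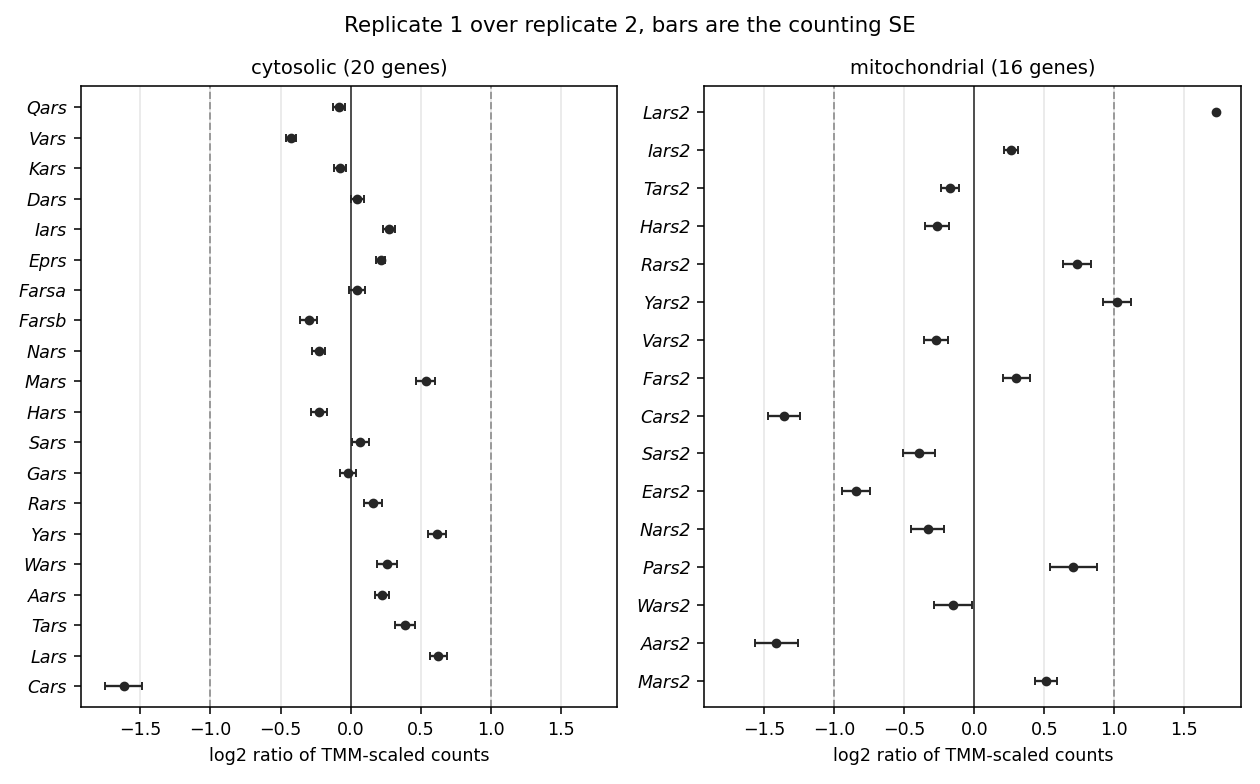
Log2 ratio of TMM-scaled counts, replicate 1 over replicate 2, for 36 synthetase genes, with cytosolic genes on the left and mitochondrial genes on the right. Bars are the counting SE, the solid line marks 0 and dashed lines mark 2-fold. Cars, Cars2 and Aars2 lie beyond the left dashed line, and Yars2 and Lars2 beyond the right one.

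The binomial test counts only sampling error. With the common dispersion of all genes, 0.575 from these 2 libraries, the edgeR exact test called 0 of 37 synthetase genes and 0 of 13616 genes in all, and 0 of the 37 had an unadjusted p under 0.05, as 1541 of all genes had. That dispersion was estimated from the same difference between libraries that the test examined, so the test could not separate the 2, and nothing is drawn from its 0 calls. The differences above are differences between these 2 libraries and no more.

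Lars2 stood apart from every other synthetase gene. It lies on chromosome 9 from 123366927 to 123462666 on the plus strand and drew 1283463 counts in replicate 1 and 395018 in replicate 2, which gave 16724 and 5181 TPM. No nuclear protein-coding gene was higher in either library. It alone took 4.44% of all counts in replicate 1 and 1.49% in replicate 2, and its level was 2252 and 506 times the median of the other 16 mitochondrial genes. Lars2 over Lars, its cytosolic counterpart, gave 876 and 408, and Lars2 exceeded the sum of the other 16 mitochondrial genes 99.8 and 30.4 times. Between libraries the log2 ratio of its scaled counts was 1.73, with a counting SE of 0.0026.

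All counts of Lars2 lay on its single listed transcript, Lars2-201, of 3881 bases in the deposited tables. In the GENCODE M21 sequence of that transcript, which has 3894 bases and was used for the search here, the coding sequence ends at base 2908. Of GENCODE M21 genes, 8 matched Lars2-201 over 50 or more bases (blastn). The longest match of each lay in the 986 bases after the coding sequence, and further matches of the same genes were not placed. Gm15564, an antisense transcript, matched over 72 bases at 98.6% identity, and AA474408, a transcript of unsettled type, over 196 bases at 80.1%. The tables gave Gm15564 0 counts in both libraries and AA474408 51 and 48 counts. Where along Lars2-201 its reads fall is not recorded in gene or transcript totals.

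The counts of Lars2 were set beside the highest RNAs of the tables. In counts per 1000000, Lars2 was 2.97 times as high in replicate 1 as in replicate 2, where Gm42418, annotated as a long intergenic RNA of chromosome 17 and at 381419 and 329507 counts per 1000000, was 1.16 times, mt-Rnr1 0.922 times and mt-Rnr2, the large ribosomal RNA of mitochondria, 0.795 times as high. Neither Gm42418 nor these mitochondrial ribosomal RNAs matched Lars2-201 at an e-value of 1e-5. The search covered GENCODE M21 transcripts alone, so ribosomal or other RNA without an entry there was not compared. Whether RNA of another source adds to the Lars2 count was not tested.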

How the data were processed

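Total RNA of 2 libraries of 100 CMP each was sequenced, and the authors aligned reads to mouse build mm10 with GENCODE M4, per the listing deposited with the files. No source used here names the aligner or counter. The deposited expected counts divide reads shared between entries, and were rounded to whole numbers for tests. The deposited TPM values are per 1000000 over all entries, tRNA and spike-ins included. The deposited percent values (a transcript's share of its gene), posterior mean TPM and interval bounds, listed as a score, served for alternatives or were not used. Symbols, biotypes and coordinates came from GENCODE M21 on the same build.

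The genes, the 8 partner lists, the markers and the tests were chosen with earlier results of these data known. Genes were called detected at 1 TPM, and log ratios used a pseudocount of 1. Tests between libraries used genes with at least 10 counts in either library, scaled by TMM in edgeR 4.0.16. Genes typed as ribosomal RNA, tRNA entries and spike-ins were left out, while Gm42418, typed as a long intergenic RNA, stayed in. Tests were run in scipy and checked on simulated counts that held sampling error alone, so the check does not cover the wider spread between these libraries. Named with values in each library are the 6 highest and 3 lowest genes of each compartment, every pair, every gene 2-fold apart between libraries, Lars2, leading transcripts of Kars, Gars, Lars2 and of genes whose share shifts by 20 points, the 4 highest genes of each partner list and those below 1 TPM in both libraries. Alternatives tried were other TPM thresholds and pseudocounts, posterior mean and rescaled TPM, values without length correction, other scalings and minimums, protein-coding transcripts alone and leaving out a library. The values of 1 gene, which the counts and medians include, are not reported here, and the figures leave it out.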

Additional observations from a re-analysis of the deposited data

Results flagged for a closer look

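The gene tables list 26248 tRNA entries, which no comparison of synthetase genes used. They held 21 counts in replicate 2, all on 1 entry, and 0 counts in replicate 1. RNA over 200 nucleotides was kept for both libraries. The value in replicate 2 is above the 3 counts that a count of 0 allows.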

How the results depend on the processing

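Of 54 alternative results, 50 kept their direction and stayed within the limits set for a change, and 4 moved. Some of the 50 could not have changed, as given below for detection. The multisynthetase complex to free-standing difference, 0.44 on the log2 scale, was 0.73 in counts per 1000000 without length correction, 0.71 on protein-coding transcripts alone and 0.33 without Qars, the last 2 chosen after seeing the data. With the common dispersion, edgeR's exact test called 0 synthetase genes between libraries where the binomial test called 30, and 0 of the 37 had an unadjusted p under 0.05. The exact test adds the spread of all genes, estimated between these same 2 libraries, to counting error. Leaving out 1 library at a time gave the values of the other library alone. The cytosolic to mitochondrial difference ranged from 1.53 to 2.08 and the complex to free-standing difference from 0.39 to 0.50. Lars2 over the other mitochondrial genes ranged from 8.85 to 10.96. All 37 genes stayed detected, there and at 0.5 TPM, which follows from their detection at 1 TPM in both libraries. At 5 TPM 31 of the 37 genes were detected, and the share of all genes at that threshold was not taken. A comparison of 2 libraries cannot leave one out. With 2 libraries of 1 group no spread within a condition beyond these pools is known, and genes near 100 counts carry a counting SE up to 0.17 on the log2 scale. No paired analysis was possible because there is 1 group.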
